A study of Drosophila melanogaster with 20 samples.

Results

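Gene expression was measured in whole larvae of the I172G line of the fruit fly and set against control larvae, with 5 libraries in each group, which are 10 of the 20 libraries of the series. I172G larvae carry the allele DmSAMC.I172G, named for a change of a single amino acid in the mitochondrial carrier of S-adenosylmethionine (SAM), and the submitters class this mutant as mild. Control larvae share with them the background wDah, an age of 4 days and a temperature of 25 °C. The line is described as genomically engineered. Zygosity, the number of independent engineered stocks, sexing and pooling of larvae are not given in the sources used here. No label says that replicates grew in separate cultures. The p-values therefore measure only the spread between these libraries, which may be technical. What the allele does and what else differs between the stocks cannot be told apart. The genes compared were the 12253 of 14081 listed that reached a normalised read count of 10 in 5 or more of the 10 libraries. Just inside this limit was tj, for which the fifth of the libraries from the top had 10.003, and just outside it was CG7367, with 9.957 there. Of the genes tested, 10 had no I172G library at or above 10 and 7 had no control library there.

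SAM is the cell's methyl donor and is made in the cytosol from methionine and ATP. The carrier, a protein of the inner mitochondrial membrane, brings SAM into the organelle in exchange for S-adenosylhomocysteine, the product left after a methyl group has been given away. Inside, SAM serves the methylation of ribosomal RNA, transfer RNA and proteins and the synthesis of lipoic acid and coenzyme Q, on which the tricarboxylic acid cycle and the respiratory chain rely. A fly larva of this age feeds almost without pause. Its gut secretes proteases, lipases and sugar-cleaving enzymes, its fat body stores fat and serum proteins, and pulses of the steroid ecdysone later end feeding, start the synthesis of salivary gland glue and lead on to the pupa.

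The normalised counts summed to 32994074 to 36610401 per I172G library and 33211877 to 35427525 per control library. On the first principal component, with 51.72% of the variance, the I172G libraries lay at 22.16 to 47.54 and 4 controls at -49.91 to -34.58, while control replicate 4 lay between them at 5.27. The median SD of log2 values was 0.172 in I172G, 0.186 in control and 0.157 in control without replicate 4. Markers of fat body, gut, muscle, neurons and hemocytes, blood cells of the fly, were present in all 10 libraries. In whole larvae, fewer cells of a type and less RNA per cell cannot be told apart.

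A total of 1789 genes (14.6% of those tested) were called higher and 2151 genes (17.6%) lower in I172G larvae at an adjusted p below 0.05 in limma's moderated test, 32.2% together. The median log2 fold change of all tested genes was -0.03. Without control replicate 2, 3 or 5 the lower count was 1358, 1429 or 1428. By the adjusted p that the authors' deposited table gives, there were 41 higher and 98 lower genes. The deposited p-values behave like those of a test against a 2-fold change, although the settings are not given. Rpn1, at a deposited log2 fold change of 0.63 with SE 0.04, was not called by them. CG10513, at 1.21 with SE 0.12, had a deposited p of 0.0904. These counts are thus at an unlike threshold to 1789 and 2151. Changes of 2-fold or more were called for 220 higher genes, 1.8% of those tested, and for 693 lower genes, 5.66%. In 18.1% of the tested genes the groups did not overlap, with I172G above control in 10.1% and below in 8%. Each count of a gene list given here is read beside the 14.6% and 17.6%. Library values are listed in the order of replicates 1 to 5. A single value given for a gene with no unit is its log2 fold change of I172G over control, with its SE after the ± sign where this is stated.

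The carrier gene CG4743 (FBgn0039357; chromosome arm 3R, bases 25679242 to 25680550, minus strand, BDGP6.54) was transcribed in both groups. Its normalised counts were 144, 159, 199, 191 and 166 in the I172G libraries, against 93.5, 124, 125, 149 and 133 in the controls. The groups overlapped, since I172G replicate 1 lay below control replicate 4. The log2 fold change of 0.46, SE 0.14, adjusted p = 0.0285, was a small increase, and it missed the threshold when I172G replicate 3 or 4 or control replicate 1, 2 or 3 was left out, with a largest adjusted p of 0.0675 and values of 0.41, 0.42, 0.36, 0.46 and 0.46. The allele changes an amino acid, so this value checks no label.

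Some genes near CG4743, among them CG5039, Lgr3 and CG5028, changed more than the carrier gene did. CG5039, on the opposite strand (bases 25678683 to 25679529), shares 288 bases with CG4743 and was at 138, 95.8, 135, 106 and 127 in the I172G libraries, against 55.7, 39.4, 44.6, 58.2 and 46.3 in the controls. I172G libraries were all above controls (log2 fold change of 1.28, SE 0.16, adjusted p = 0.000302). Whether reads were counted by strand is not given in the sources used here, so reads of CG5039 and CG4743 in the shared bases cannot be told apart. Lgr3, the next gene, encodes the receptor through which the relaxin-like hormone Ilp8 delays growth, and had 95.4, 64.1, 41.1, 55.1 and 75.6 in the I172G libraries, against 14.8, 19.1, 39.9, 19.7 and 21.6 in the controls. It did not overlap between the groups, although I172G replicate 3 stood just above control replicate 3 (log2 fold change of 1.51, SE 0.29, adjusted p = 0.00369). Of the 20 other genes tested within 100 kb of CG4743, 2 were called higher, CG5039 and Lgr3, and 6 lower. Among the lower ones is CG5028, which starts at base 25680845, just beyond the end of CG4743 (log2 fold change of -0.66, SE 0.07).

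The 10 largest increases and 10 largest decreases were taken among called genes with a mean of at least 50 and no overlap between the groups. CG13670 led the increases with 387, 145, 213, 324 and 300.1 in the I172G libraries, against 1.15, 1.07, 1.17, 1.16 and 0.942 in the controls. The controls lay close to each other near 1, and the lowest I172G library, replicate 2, was far above them. CG13670 met the filter on low values only through the 5 I172G libraries, so it had to differ and its test gives no support. CG43117 had 1827, 2259, 1604, 1973 and 1403 in the I172G libraries, against 10.4, 201, 3.58, 9.32 and 18.2 in the controls, so that control replicate 2 stood far above the other controls and still below all I172G libraries (log2 fold change of 6.61, SE 0.79, adjusted p = 0.000255). The gene w encodes white, the ABC transporter that carries eye pigment precursors and whose loss gives the wDah stock its eye colour. Its counts were 194, 173, 179, 191 and 599 in the I172G libraries, against 15.9, 5.31, 23.4, 3.47 and 5.64 in the controls. I172G replicate 5 stood well above the other I172G libraries, and no control came near them (log2 fold change of 4.62, SE 0.50, adjusted p = 0.000141). Control replicates 2, 4 and 5 were below the filter of 10, so w met it through its I172G libraries and its test is given little weight. Whether the I172G stock carries a white marker gene is not given in the sources used here. Of the other 16 members of the eye pigment list that were tested, pr alone was called higher, at 0.48, and 5 were lower. They include cn and v, enzymes of brown pigment synthesis, at -0.97 and -0.67, and the count of lower members was 3 without control replicate 1 or 3.

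**Figure D1:**
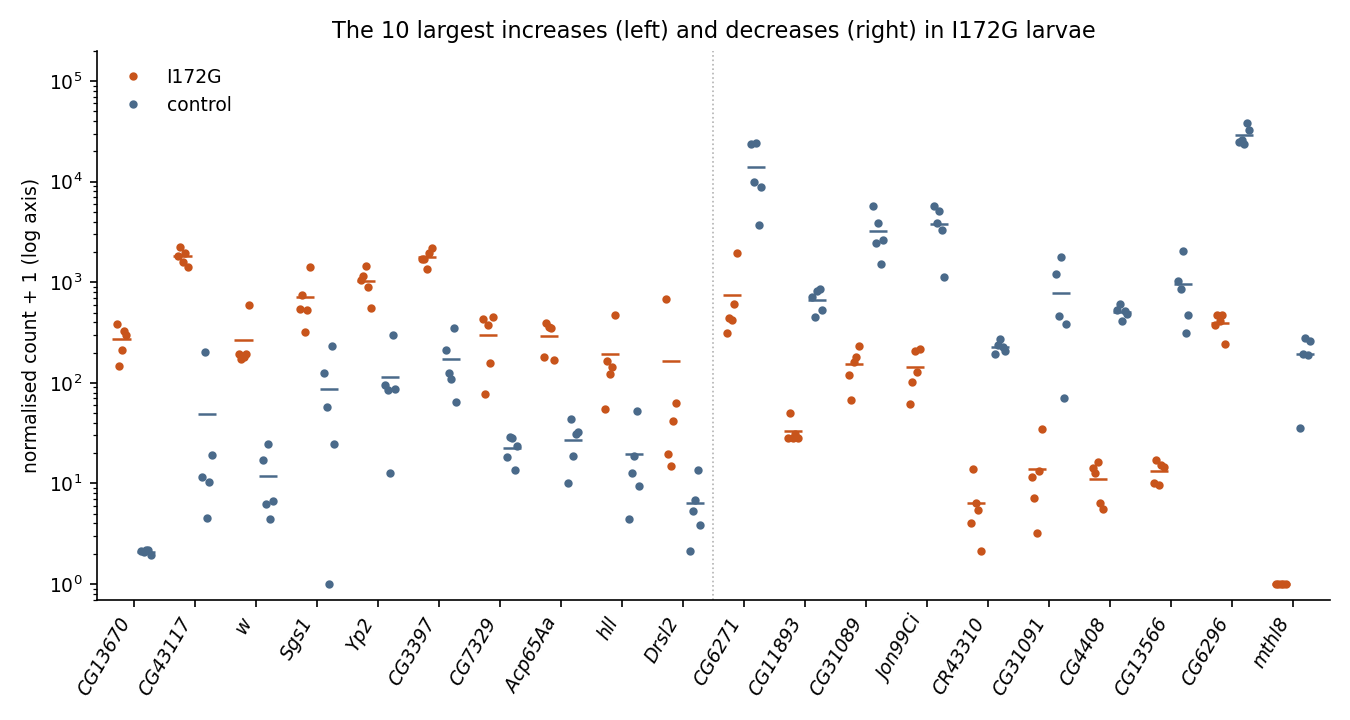
Normalised counts plus 1 (log axis) of the 10 largest increases and the 10 largest decreases, with 1 point per library, I172G left and control right for each gene, and bars at the group means. CG13670 lies low and close together in all 5 controls, and mthl8 is at 0 in all 5 I172G libraries.

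Among the decreases, mthl8, a receptor of the methuselah family, was listed at 0 in all 5 I172G libraries and at 34.5, 192, 279, 189.7 and 257 in the controls, with control replicate 1 lowest. It met the filter on low values only through the 5 control libraries, so it had to differ and its test gives no support. Of the other 12 methuselah-like receptors tested, 6 were called higher by 0.23 to 0.53 on the log2 scale, and mthl10 was lower at -0.20, a call lost without I172G replicate 2, 4 or 5 or control replicate 1, 3, 4 or 5 (largest adjusted p = 0.108). The count of higher receptors was 3 without I172G replicate 3 or 4 or control replicate 1 or 5. CG13566 was at 9.13, 16.3, 8.65, 14.3 and 13.5 in the I172G libraries, against 1035, 861, 2064, 315 and 476 in the controls. The controls differed widely among themselves, and the lowest of them was still far above every I172G library (log2 fold change of -5.89, SE 0.43, adjusted p = 1.31e-05). CG4408 was at 13.2, 11.6, 15.1, 5.44 and 4.52 in the I172G libraries, against 530.3, 599.9, 412, 521 and 479 in the controls, again with a wide gap between the groups (log2 fold change of -5.65, SE 0.29, adjusted p = 8.55e-07). The gene with the smallest adjusted p of all was eater, a receptor with which hemocytes bind and engulf bacteria. It was at 59.9, 64.9, 75.6, 58.3 and 68.6 in the I172G libraries, against 827, 737, 940.2, 922 and 813 in the controls. Both groups were tight, with no library apart, and the difference between them was a log2 fold change of -3.68, SE 0.10, adjusted p = 4.47e-09.

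In the severe lines P223L and SAMC-null, measured beside these libraries and sharing their controls, the same genes stood at levels that are given here side by side without a test. CG13670 averaged 0.653 ± 0.596 in P223L and 0.313 ± 0.429 in SAMC-null larvae (SD, n = 5 each), near the controls. CG43117 averaged 4195 ± 198 in P223L and 3221 ± 361 in SAMC-null larvae. The level of w was 533 ± 241 in P223L and 1738 ± 596 in SAMC-null larvae, and that of mthl8 was 1.04 ± 1.32 in P223L and 342 ± 42.3 in SAMC-null larvae. The hemocyte receptor eater averaged 60.2 ± 12 in P223L and 81 ± 23.7 in SAMC-null larvae, which puts all 3 mutant lines below the controls.

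SAM metabolism in the cytosol differed in both directions. Sam-S, the SAM synthetase, was at 7892, 7720, 7877, 8302 and 8890 in the I172G libraries, against 17023, 13194, 19209, 13234 and 14952 in the controls. All I172G libraries were lower and lay within a narrow range (log2 fold change of -0.92, SE 0.10, adjusted p = 0.000159). The severe lines had more than the controls did, with 22155 ± 821 in P223L and 28505 ± 478 in SAMC-null larvae (SD, n = 5 each). CG10621 and CG10623 are predicted homocysteine S-methyltransferases, which make methionine from homocysteine. CG10621 had 6076, 8221, 6042, 6503 and 5671 in the I172G libraries, against 1217, 1952, 870.2, 3779 and 1648 in the controls. Control replicate 4 was the highest control and remained below every I172G library (log2 fold change of 1.95, SE 0.31, adjusted p = 0.00142). CG10623 had 1734, 1685, 1652, 1874 and 2042 in the I172G libraries, against 982, 934, 781, 1065 and 955 in the controls, with no overlap and little spread (log2 fold change of 0.93, SE 0.09, adjusted p = 6.25e-05). Cbs, cystathionine beta-synthase, which draws homocysteine off towards cysteine, was lower with 672 ± 98.8 in I172G and 1006 ± 108 in control larvae (SD, n = 5 each; log2 fold change of -0.59, SE 0.11, adjusted p = 0.00379). AhcyL2, a relative of adenosylhomocysteinase, was higher by 0.36. Ahcy itself was at 0.31 with an adjusted p of 0.0321, which missed the threshold without I172G replicate 2, 3 or 4 or control replicate 1, 2, 3 or 5 (largest adjusted p = 0.0721). In all, 4 of the 9 tested members of the methionine cycle and transsulfuration were called higher and 2 lower. Gnmt, the glycine methyltransferase that consumes much of the fat body's SAM, was at 6056 ± 912 in I172G and 6424 ± 1179 in control larvae (SD, n = 5 each) and was not called (adjusted p = 0.675).

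Serine feeds methyl groups into this cycle through folate, and the enzymes that make it were higher. CG6287 is phosphoglycerate dehydrogenase, the entry to serine synthesis, and was at 2436, 2012, 1702, 1886 and 1674 in the I172G libraries, against 709, 730.3, 596, 1177 and 697 in the controls. The groups did not overlap (log2 fold change of 1.34, SE 0.17, adjusted p = 0.00035). CG11899, phosphoserine aminotransferase, was higher by 1.38 ± 0.29 (SE) and aay, phosphoserine phosphatase, by 0.84 ± 0.17, so that all 3 steps of the pathway were called higher. Nmdmc, a mitochondrial folate dehydrogenase, was higher by 0.96 ± 0.19, and AsnS, asparagine synthetase, by 1.16 ± 0.23. Several of these genes are known targets of the transcription factor ATF4, encoded in the fly by crc. Of 10 genes in the list of ATF4 targets and serine synthesis, 6 were higher and 2 lower, and the transcript of crc itself was at -0.13 and not called (adjusted p = 0.0655). The lower members were trbl and Gadd45, a stress gene, with Gadd45 at 182, 182, 124, 145 and 158 in the I172G libraries, against 352, 422, 496, 382 and 331 in the controls. Every I172G library was below every control (log2 fold change of -1.32, SE 0.14, adjusted p = 0.000108). On the folate side pug, the cytosolic enzyme that interconverts folate forms, was lower: it had 9058, 9004, 9132, 8945 and 9174 in the I172G libraries, against 16617, 13172, 17787, 10371 and 11986 in the controls. The I172G libraries were nearly equal, while controls ranged widely above them (log2 fold change of -0.60, SE 0.13, adjusted p = 0.00641).

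**Figure D2:**
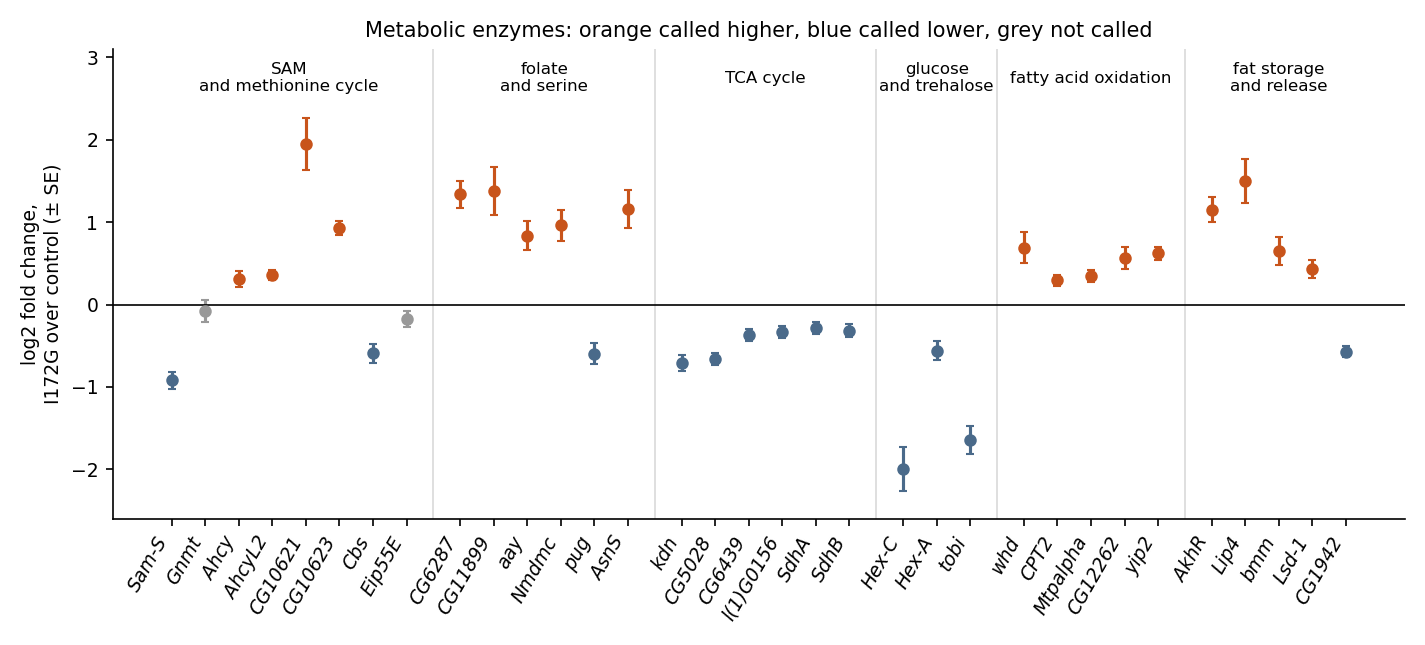
Log2 fold change of I172G over control, with SE bars, for enzymes of SAM, folate, serine, the tricarboxylic acid (TCA) cycle, sugar and fat metabolism. Serine synthesis, fatty acid oxidation and lipid release lie above 0, and Sam-S, Cbs and the TCA cycle genes lie below.

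Tricarboxylic acid cycle genes fell together in part, and those of mitochondrial fatty acid oxidation were higher together, by modest amounts. Of 16 tested members of the cycle 11 were called lower and 0 higher, with a median of -0.25, and the count was 7 without I172G replicate 1, control replicate 1 or control replicate 2. Without control replicate 4 there was 1 member called higher, and at an unadjusted p below 0.05 there was also 1. kdn, citrate synthase, had 8380, 9619, 10153, 8282 and 7320 in the I172G libraries, against 15110, 15366, 15049, 12179 and 13433 in the controls. CG5028, a subunit of isocitrate dehydrogenase, had 4606, 5550, 5466, 5011 and 4571 in the I172G libraries, against 8548, 8351, 7918, 7360 and 7506 in the controls. Both were without overlap, at -0.71 ± 0.10 and -0.66 ± 0.07 (SE). CG5028 lies just beyond the end of the carrier gene CG4743, and the part of this position in its decrease was not tested. Subunits SdhA and SdhB of succinate dehydrogenase, which is also complex II of the respiratory chain, were at -0.29 and -0.32. Of 12 tested genes of fatty acid oxidation 7 were called higher and 0 lower, with 0 lower also at an unadjusted p below 0.05, and all 12 fold changes were above 0, with a median of 0.29. whd, carnitine palmitoyltransferase 1 at the gate of the pathway, had 2565, 2566, 3618, 3368 and 5024 in the I172G libraries, against 2500, 2243, 1711, 2375 and 1628 in the controls. I172G replicate 5 was highest, and replicates 1 and 2 were only just above the highest control (log2 fold change of 0.69, SE 0.19, adjusted p = 0.0188). yip2, the thiolase of the last step, had 7585, 7083, 7505, 8368 and 8137 in the I172G libraries, against 5380, 4799, 4280, 5921 and 4884 in the controls, with a clear gap (log2 fold change of 0.62, SE 0.08, adjusted p = 0.000562).

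Most genes of the respiratory chain and of mitochondrial translation were not called, and those called were lower in I172G. Of the 13 genes of the mitochondrial genome 0 were called by limma, 1 was lower at an unadjusted p below 0.05, and their share of the normalised counts was 4.82 ± 0.253% in I172G and 5.14 ± 0.168% in control larvae (SD, n = 5 each). Of 41 nuclear complex I subunits 9 were lower and 0 higher, and of 50 subunits of complexes II to V 12 were lower and 0 higher, a count that was 6 without control replicate 1, 5 without control replicate 2 and 7 without control replicate 5. None of either list was higher at an unadjusted p below 0.05, and 38 of 41 and 47 of 50 fold changes were below 0. These lists include copies of subunits whose symbols end in L, with or without a digit. By this division, made after the values were seen, 3 of 6 such copies in complex I and 7 of 10 in complexes II to V were lower, with medians of -0.73 and -0.92. Among the other members 6 of 35 and 5 of 40 were lower, with medians of -0.13 and -0.11. These shares do not exceed the 17.6% lower among all tested genes. ND-75, ND-51 and ND-B12, subunits of complex I itself, were lower at -0.32 ± 0.07, -0.29 ± 0.06 and -0.52 ± 0.11 (SE). Of 75 mitochondrial ribosomal proteins 5 were lower, a smaller share than among all tested genes. The count was 3 without I172G replicate 4 or control replicate 2, with 2 higher without control replicate 4. Of the 6 mitochondrial enzymes that use SAM, all with fold changes below 0, mtTFB1 was called. It methylates the small ribosomal RNA of the organelle and was at 619.8, 739.7, 729.7, 719.7 and 627 in the I172G libraries, against 777, 820.0, 796, 876 and 808 in the controls. The I172G libraries were all below the controls, by a small margin (log2 fold change of -0.25, SE 0.07, adjusted p = 0.0199). Among 15 tRNA synthetases whose symbol ends in -m, the mark of a mitochondrial form, 7 were lower and 0 higher. Of the 18 others 5 were higher and 1 lower, a division also made after the values were seen. TrpRS-m, at -0.61 ± 0.09, and GluProRS, a cytosolic form at 0.45 ± 0.09 (SE), show the directions. Over the whole list the number of lower synthetases was 5 without I172G replicate 3 or 5, and that of higher ones was 2 or 3 without any library but I172G replicate 5 and control replicate 4, with 8 without I172G replicate 5.

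Genes of fat release and sugar use also differed. AkhR, the fat body receptor of the adipokinetic hormone that mobilises stores, was at 1010, 999, 1274, 1073 and 1091 in the I172G libraries, against 438, 503, 339, 645 and 569.8 in the controls. All I172G libraries were above all controls (log2 fold change of 1.15, SE 0.15, adjusted p = 0.000484). The lipase Lip4 averaged 958 ± 146 in I172G and 363 ± 160.2 in control larvae (SD, n = 5 each; adjusted p = 0.00232). The triglyceride lipase brummer, bmm, was higher by 0.65 ± 0.17, and Lsd-1, the perilipin on lipid droplets, by 0.43 ± 0.11 (SE). CG1942, of the diacylglycerol acyltransferase family, was lower, at -0.57 ± 0.06. In all 6 of 19 genes of fat storage and release were higher and 2 lower, or 1 lower without I172G replicate 1, 4 or 5 or control replicate 1 or 3. Hex-C, a hexokinase, was at 60.6, 155.7, 125, 86.9 and 59.8 in the I172G libraries, against 306, 346, 535, 344 and 334 in the controls, which left no overlap (log2 fold change of -1.997, SE 0.27, adjusted p = 0.000532). Hex-A was lower, at -0.56 ± 0.12, and 4 of 13 glycolytic genes were lower and 0 higher, with 0 higher also at an unadjusted p below 0.05. tobi, an alpha-glucosidase that responds to insulin and adipokinetic hormone, had 2209, 2752, 2205, 2113 and 2565 in the I172G libraries, against 9155, 5427, 10566, 5733 and 7214 in the controls. Controls varied and all exceeded the I172G libraries (log2 fold change of -1.64, SE 0.17, adjusted p = 0.000108). The start of tobi lies 334.5 kb from that of CG4743, in a stretch with many 2-fold changes described below. The part of this position in its decrease was not tested. daw, an activin ligand that acts on sugar handling, was at 2103, 2259, 2348, 2159 and 2103 in the I172G libraries, against 945, 1468, 592, 1894 and 1035 in the controls, with I172G libraries nearly equal and control replicate 4 closest to them (log2 fold change of 0.99, SE 0.24, adjusted p = 0.012).

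Digestive enzymes of the gut made up many of the largest decreases. Of 14 tested gut lipases 11 were called lower and 0 higher, with a median of -1.85. Of 28 trypsins and Jonah proteases 17 were lower and 0 higher, with a median of -0.48, and of 13 maltases and amylases 7 were lower and 3 higher. At an unadjusted p below 0.05, 0 lipases and 3 proteases were higher, and without control replicate 4 there were 2 proteases called higher. CG6296, a lipase, was at 376, 473, 408, 470.4 and 242 in the I172G libraries, against 24675, 26127, 23748, 37876 and 32321 in the controls. Every I172G library was far below every control, and neither group held a library apart (log2 fold change of -6.21, SE 0.19, adjusted p = 6.58e-09). In P223L and SAMC-null larvae, which share the controls, CG6296 averaged 6986 ± 895 in P223L and 3994 ± 298 in SAMC-null larvae (SD, n = 5 each), between the I172G and the control levels. The lipase CG6271 had 311, 440.2, 417, 607 and 1944 in the I172G libraries, against 23755, 9892, 24034, 3729 and 8825 in the controls, so that I172G replicate 5 was highest in its group and still below control replicate 4 (log2 fold change of -4.28, SE 0.57, adjusted p = 0.000533). mag, the main lipase of the gut lumen, was lower, at -0.79 ± 0.08 (SE), and averaged 64727 ± 5554 in I172G and 111708 ± 5792 in control larvae (SD, n = 5 each). The protease Jon99Ci was lower, at -4.69 ± 0.45. Jon66Cii had 1585, 1854, 2431, 2270 and 3214 in the I172G libraries, against 8615, 9974, 21528, 10256 and 12198 in the controls, with control replicate 3 apart from the other controls and no overlap (log2 fold change of -2.42, SE 0.24, adjusted p = 9.42e-05).

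Amylase Amy-p, which cuts starch, was at 6261, 5034, 6738, 5068 and 12422 in the I172G libraries, against 40836, 34680, 47428, 17180 and 27499 in the controls. I172G replicate 5 came closest to control replicate 4 without reaching it (log2 fold change of -2.24, SE 0.30, adjusted p = 0.000505). Mal-A3 and Mal-A4, maltases, were lower, at -2.07 ± 0.16 and -1.54 ± 0.14, whereas their neighbours in the same family Mal-A5, Mal-A7 and Mal-A8 were higher, Mal-A8 at 605, 606, 701, 397 and 366 in the I172G libraries, against 171, 118, 105.5, 264 and 169 in the controls. I172G and control libraries of Mal-A8 did not overlap (log2 fold change of 1.72, SE 0.26, adjusted p = 0.000991). CG8997 and CG7916, among the most abundant transcripts of the decrease, averaged 32498 ± 4209 in I172G and 87049 ± 17224 in control larvae and 20816 ± 2537 in I172G and 69932 ± 13020 in control larvae (SD, n = 5 each). Of 7 lysozymes 0 were called by limma, with 1 lower at an unadjusted p below 0.05 and 1 called lower without control replicate 2. LysC, at -2.15, spread widely over the controls (adjusted p = 0.0804). Of 32 peritrophic matrix proteins, chitinases and mucins 7 were higher and 10 lower, with the chitinases Cht4 and Cht9 at -1.55 and -0.89 and Cht10 at 1.13. The number higher was 4 without I172G replicate 4.

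**Figure D3:**
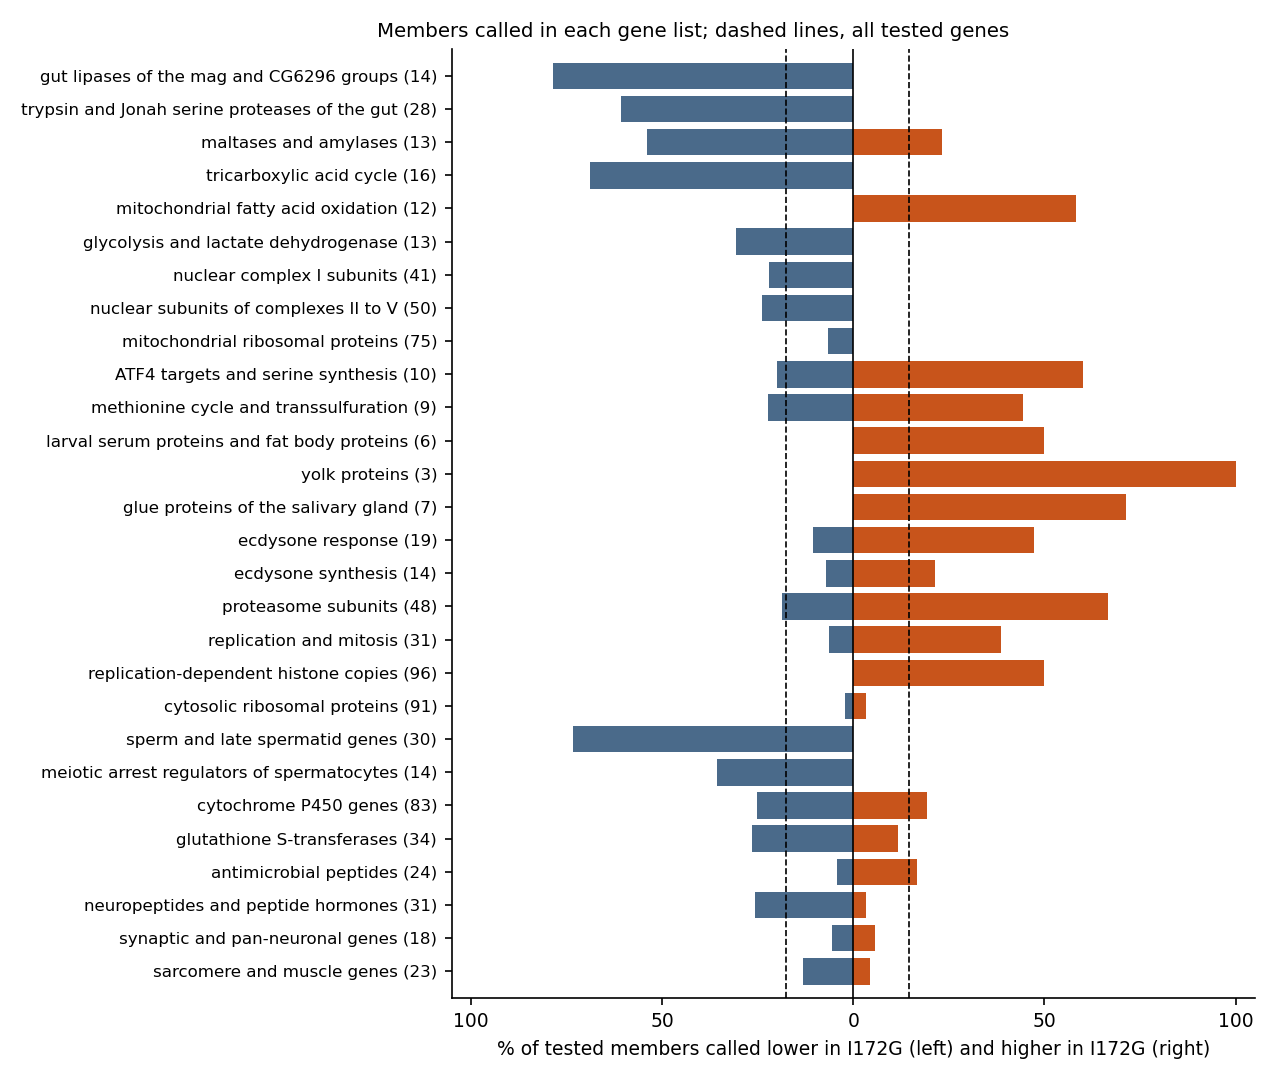
Share of tested members of 28 gene lists called lower (left, blue) or higher (right, orange) in I172G larvae, with the number tested in brackets and dashed lines at 17.6% lower and 14.6% higher for all tested genes. Gut enzymes, the TCA cycle and sperm genes extend to the left, and yolk, glue, proteasome and histone genes to the right.

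Several products of the fat body and the salivary gland that are made towards the end of larval life were higher in I172G larvae, with wide spread among the controls. Fbp1, the fat body receptor that takes up serum proteins, was at 187036, 149728, 103830, 145645 and 393563 in the I172G libraries, against 55526, 23011, 5673, 105170 and 23466 in the controls. Control replicate 4 lay above I172G replicate 3, so the groups overlapped (log2 fold change of 2.64, SE 0.66, adjusted p = 0.0126). Fbp2, another abundant fat body protein, was at 201208, 217242, 201787, 227485 and 226673 in the I172G libraries, against 124099, 89921, 86072, 172566 and 116816 in the controls, without overlap (log2 fold change of 0.91, SE 0.17, adjusted p = 0.00297). The serum protein Lsp2 was at 0.35 (adjusted p = 0.0401), which missed the threshold when any of I172G replicates 2 to 5 or control replicates 2, 3 and 5 was left out, with a largest adjusted p of 0.0962. Lsp1alpha, Lsp1beta and Lsp1gamma, at 0.23, -0.03 and 0.21, were not called (adjusted p = 0.194, 0.87 and 0.245).

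All 3 yolk protein genes were called higher. Their products are made by the fat body and ovary of adult females. Yp3 was at 4675, 8930, 5276, 4503 and 4544 in the I172G libraries, against 1007, 420.5, 553, 1300 and 796 in the controls. The highest control, replicate 4, was below the lowest I172G library (log2 fold change of 2.83, SE 0.29, adjusted p = 0.000105). Yp2 had 1046, 1154, 1441, 899 and 557 in the I172G libraries, against 94.4, 84.7, 11.8, 296 and 85.3 in the controls, with no overlap (log2 fold change of 3.66, SE 0.64, adjusted p = 0.00232), and the call of Yp1 was lost without I172G replicate 1, 2, 3 or 4 or control replicate 2 or 3 (largest adjusted p = 0.0678). In P223L and SAMC-null larvae Yp2 averaged 3.2 ± 2.34 in P223L and 3.71 ± 1.99 in SAMC-null larvae (SD, n = 5 each).

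Of 7 glue protein genes, whose products stick the pupal case to its support, 5 were called higher, 3 without control replicate 2 or 5 and 7 without control replicate 4. Sgs3 was at 4091, 5861, 3585, 4399 and 11750 in the I172G libraries, against 2620, 1069, 362, 3063 and 1061 in the controls. I172G replicate 5 was highest and control replicate 3 lowest, and control replicate 4 was close under I172G replicate 3 (log2 fold change of 2.08, SE 0.53, adjusted p = 0.0142). Sgs1 was listed at 0 in control replicate 3 and had 545, 739.9, 322, 528 and 1415 in the I172G libraries, against 123, 56.1, 0, 229.8 and 23.5 in the controls (log2 fold change of 4.24, SE 1.19, adjusted p = 0.0209). The mean log2 level of the glue genes was 11.03 to 13.05 in I172G and 7.36 to 11.35 in control libraries. Eig71Ee, a salivary gland product of the ecdysone-regulated 71E puff, had 11423, 12480, 8514, 12160 and 21182 in the I172G libraries, against 2083, 1489, 379.9, 4118 and 1820 in the controls. Its order of libraries resembled that of the glue genes, with I172G replicate 5 at the top and control replicate 3 at the bottom (log2 fold change of 3.02, SE 0.51, adjusted p = 0.00183).

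Of 19 genes of the ecdysone response 9 were higher and 2 lower. br, the broad transcription factor that marks the switch to metamorphosis, was at 10283, 8538, 6999, 7931 and 10402 in the I172G libraries, against 5179, 4458, 5759, 4984 and 4462 in the controls, with every I172G library above every control (log2 fold change of 0.82, SE 0.12, adjusted p = 0.000701). EcR, the ecdysone receptor, was at 0.60 ± 0.11, Eip74EF, an early target, at 0.57 ± 0.12, and Hr39 at 0.55 ± 0.07 (SE). Eip75B, another early target, was at 0.01 and not called (adjusted p = 0.947). ftz-f1, a factor of the mid-prepupal period, was lower, at -0.33 ± 0.08. I172G replicate 1 stood apart in this list: its mean log2 level over the 19 genes was 10.14, against 8.83 to 9.16 in the other I172G libraries and 8.52 to 8.76 in the controls. ImpE1, an ecdysone-inducible gene, shows this, with 831, 240.1, 232, 197 and 247 in the I172G libraries, against 157, 107, 137, 97.8 and 126 in the controls. The other 4 I172G libraries of ImpE1 were still above all controls (log2 fold change of 1.256, SE 0.34, adjusted p = 0.0176). ImpE2, which was not called (adjusted p = 0.0555), had 1645, 83.7, 9.71, 55.4 and 111 in the I172G libraries, against 15.9, 16, 17.6, 9.28 and 11.3 in the controls. In the tanning enzymes I172G replicate 1 was apart as well, with ple, tyrosine hydroxylase, at 16544, 681, 561, 547 and 544 in the I172G libraries, against 447, 524, 593, 448 and 487 in the controls and not called (adjusted p = 0.282). yellow-f, which speeds melanin synthesis, was called, at 419.8, 224, 226, 234 and 551 in the I172G libraries, against 106, 94, 59.6, 76 and 70.1 in the controls (log2 fold change of 1.94, SE 0.27, adjusted p = 0.000624). All I172G libraries of yellow-f were above the controls, and replicate 5 was the highest.

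Of 14 genes of ecdysone synthesis 3 were higher and 1 lower, or 2 lower without control replicate 4. sro, the shroud dehydrogenase of the prothoracic gland, had 1214, 1276, 1113, 1103 and 1265 in the I172G libraries, against 368, 394, 167, 918 and 503 in the controls. I172G libraries were nearly equal and controls uneven, with replicate 4 nearest to I172G (log2 fold change of 1.55, SE 0.34, adjusted p = 0.00694). Jhe, the esterase that breaks down juvenile hormone, was at 1.04 ± 0.18, and Jheh1, an epoxide hydrolase of the same hormone, at -0.59 ± 0.13 (SE). Among cuticle genes, 9 of 44 Cpr genes were higher and 9 lower. Acp65Aa, a protein known from adult cuticle, had 179, 393, 357, 352 and 169 in the I172G libraries, against 9.16, 42.7, 17.6, 30.01 and 31.1 in the controls and separated the groups fully (log2 fold change of 3.50, SE 0.39, adjusted p = 0.000184). Cpr78E had 2380, 2932, 1362, 3101 and 5944 in the I172G libraries, against 592, 293, 229, 1213 and 401 in the controls, again with control replicate 4 the highest control (log2 fold change of 2.63, SE 0.46, adjusted p = 0.00219).

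**Figure D4:**
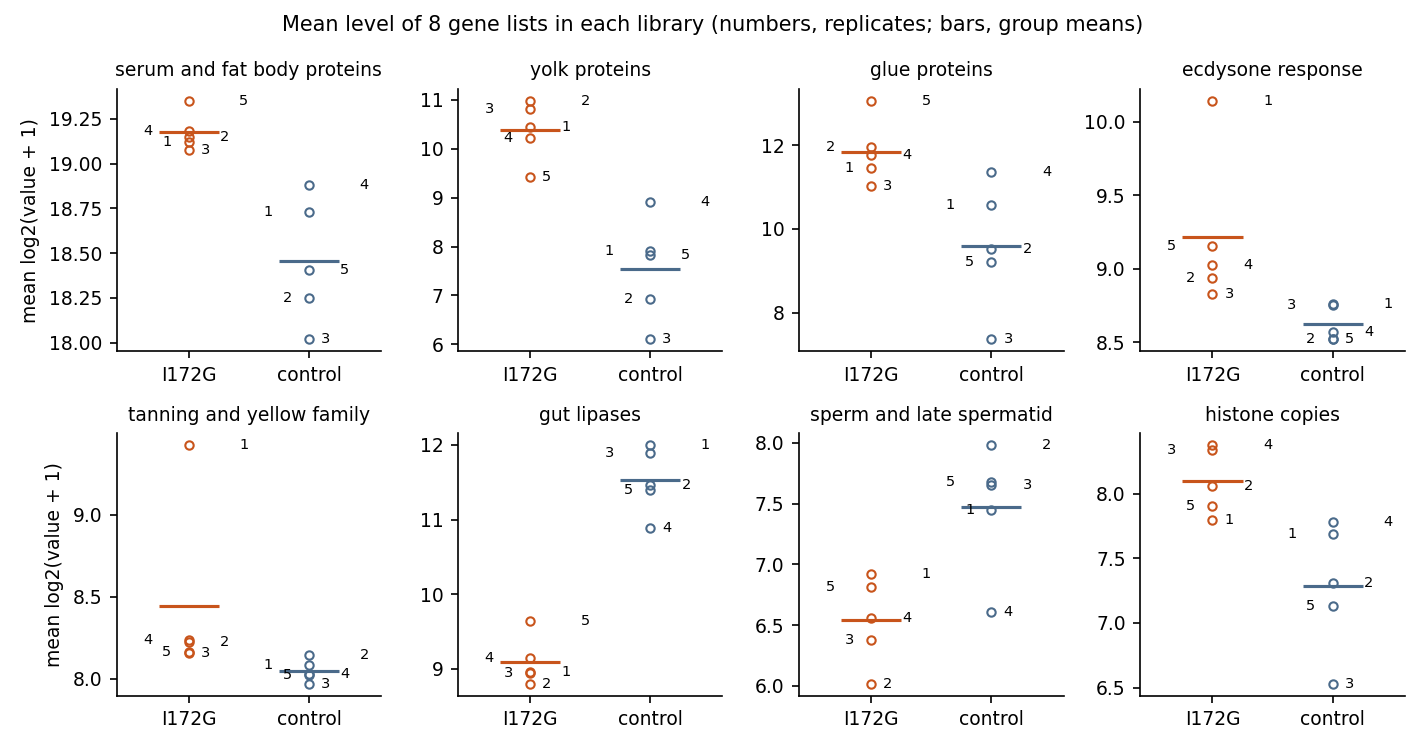
Mean log2(value + 1) of 8 gene lists in each library, I172G left and control right, with replicate numbers beside the points and bars at the group means. I172G replicate 1 is apart in the ecdysone and tanning lists, and control replicate 4 lies towards I172G in the fat body, yolk, glue, sperm and histone lists.

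Genes of the male germline were lower. Of 30 tested sperm and late spermatid genes 22 were called lower and 0 higher, and all 30 fold changes were below 0, with a median of -0.95. The count was 14 without I172G replicate 2 or 3 or control replicate 2, 3 or 5, and 30 without control replicate 4. Only 5 of the 30 had all I172G libraries below all controls, against 8% of all tested genes. The mean log2 level of this list was 6.02 to 6.92 in I172G libraries, against 6.61 in control replicate 4 and 7.45 to 7.98 in the remaining controls. schuy, a gene of late spermatids, had 66.2, 38.4, 36.8, 36.8 and 63.2 in the I172G libraries, against 133, 208, 173, 68.6 and 122 in the controls. Control replicate 4 was just above the highest I172G library (log2 fold change of -1.48, SE 0.29, adjusted p = 0.00438). Mst84Dc, of the sperm tail, had 90.6, 44.6, 80.6, 56.4 and 75.8 in the I172G libraries, against 166, 251, 188, 99.2 and 192 in the controls, in which only control replicate 4 came near I172G (log2 fold change of -1.34, SE 0.25, adjusted p = 0.00351). Of 14 regulators of the spermatocyte programme 5 were lower, 12 without control replicate 4, 3 without I172G replicate 2 or 3 or control replicate 1, and 2 without control replicate 2 or 5. The Y chromosome, whose genes act mainly in the male germline, had 6 of its 18 tested genes lower, all by 2-fold or more. Among these kl-5, a dynein heavy chain of the sperm tail, had 51.3, 31.1, 42.1, 44 and 33.9 in the I172G libraries, against 102, 155.7, 137, 60.2 and 99.5 in the controls, without overlap (log2 fold change of -1.38, SE 0.25, adjusted p = 0.00259). The sex-determination gene tra averaged 101 ± 14.3 in I172G and 102 ± 15.2 in control larvae (SD, n = 5 each) and was not called, while dsx, at 0.54, was higher and fru, at -0.49, lower. The share of males per library is not given in the sources used here, and its part in these differences was not tested. For roX1 and roX2, RNAs of the male X chromosome, no value was analysed here.

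Many genes of protein turnover and of the cell cycle were higher. Of 48 proteasome subunits 32 were called higher and 9 lower. By a division made after the values were seen, 31 of the 32 subunits whose symbol does not end in R or T (a digit may follow the letter) were higher and 0 lower, the exception being Prosalpha1 at -0.44 (adjusted p = 0.574), and 9 of the 16 copies with such an ending were lower and 1 higher. Rpn1, a base subunit of the proteasome cap, had 5764, 5592, 5207, 5248 and 5472 in the I172G libraries, against 3430, 3582, 3356, 3831 and 3455 in the controls. The libraries of each group were close together and the gap between the groups was wide (log2 fold change of 0.63, SE 0.05, adjusted p = 2.45e-05). The counterpart Prosalpha4T1 had 20.3, 9.29, 6.48, 9.88 and 13.5 in the I172G libraries, against 38.9, 36.3, 22.4, 20.8 and 52.8 in the controls, with no overlap (log2 fold change of -1.46, SE 0.35, adjusted p = 0.0108). I172G replicates 2, 3 and 4 were below the filter of 10, so Prosalpha4T1 met it through its controls and its test is given little weight. The lower count was 14 without control replicate 4. Of 31 genes of replication and mitosis 12 were higher and 2 lower, or 1 lower without I172G replicate 3 or 4 or control replicate 1, 2, 3 or 5. RnrL, the large subunit of ribonucleotide reductase, which makes DNA precursors, had 983, 1042, 1119, 1075 and 997 in the I172G libraries, against 680.4, 723, 618, 824 and 759 in the controls, without overlap (log2 fold change of 0.54, SE 0.08, adjusted p = 0.000894). The cyclins CycE and CycA were at 0.42 ± 0.08 and 0.42 ± 0.06 (SE). Of 96 histone gene copies 48 were higher and 0 lower, with 0 lower also at an unadjusted p below 0.05. These copies are nearly identical in sequence, so that reads may be split among them. For example, His2B:CG33870 and His2B:CG33886 both had a deposited log2 fold change of 0.53 with SE 0.19. The copies are thus not separate measurements, and their share is not that of 96 independent genes. Of 91 cytosolic ribosomal proteins 3 were higher and 2 lower, with a median of 0.05. The number higher was 12 without control replicate 4 and 1 without I172G replicate 2, 3 or 4 or control replicate 1, 2, 3 or 5, and 4 were lower without control replicate 4.

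Single genes of defence differed strongly between the groups. NimC2, a receptor of the Nimrod family of hemocytes, had 1400, 455, 141, 493 and 875 in the I172G libraries, against 91.2, 51.3, 49.2, 72.6 and 51.7 in the controls, opposite in direction to eater and spread widely among I172G libraries (log2 fold change of 3.07, SE 0.49, adjusted p = 0.00146). Hml and NimC1, which mark the plasmatocyte class of hemocytes, averaged 20107 ± 2317 in I172G and 20677 ± 2143 in control larvae and 746 ± 178 in I172G and 670.0 ± 110.4 in control larvae (SD, n = 5 each) and were not called (adjusted p = 0.757 and 0.535). PGRP-SC1b, an amidase that breaks down bacterial peptidoglycan in the gut, had 2082, 3520, 2733, 1407 and 1897 in the I172G libraries, against 67.6, 132, 548, 573 and 1054 in the controls. Control replicate 5 was closest to the I172G libraries and control replicate 1 lowest (log2 fold change of 2.82, SE 0.65, adjusted p = 0.00875). Of 24 antimicrobial peptides 4 were higher and 1 lower. The higher ones included Drsl2, with 684, 18.6, 13.9, 40.8 and 61.6 in the I172G libraries, against 1.15, 4.3, 5.89, 12.7 and 2.85 in the controls, in which I172G replicate 1 stood apart (log2 fold change of 3.39, SE 0.92, adjusted p = 0.0185). Among the controls of Drsl2, only replicate 4 reached the level of the filter on low values. Drsl2 thus met this filter through its I172G libraries, and its test is given little weight. The number of peptides called higher was 2 without I172G replicate 4 or control replicate 2 or 5. The number lower was 4 without I172G replicate 2, 2 without control replicate 4 or 5, and 0 without I172G replicate 3 or 5 or control replicate 3.

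Of 83 cytochrome P450 genes 16 were higher and 21 lower, and of 34 glutathione S-transferases 4 were higher and 9 lower. GstD4 had 62.2, 72.2, 36.7, 51.5 and 36 in the I172G libraries, against 875, 780.2, 1258, 556 and 993 in the controls. Every I172G library was far below every control (log2 fold change of -4.09, SE 0.24, adjusted p = 2.11e-06), while its relative GstD1 was at 0.00 and not called (adjusted p = 0.997). The number of higher transferases was 2 without I172G replicate 2 or 4 or control replicate 2 or 5. Cat, catalase, which removes hydrogen peroxide, was at 30405, 30120, 27699, 29075 and 28587 in the I172G libraries, against 49524, 39947, 52744, 44648 and 37378 in the controls, with no overlap (log2 fold change of -0.61, SE 0.09, adjusted p = 0.00108). Tsf1, the iron carrier transferrin of the hemolymph, was lower, at -0.76 ± 0.11, and MtnB, a metallothionein, higher by 0.91 ± 0.15 (SE). Hsp68, an inducible chaperone, was at 0.68 ± 0.17. Obp99a, an odorant-binding protein that is also made outside sense organs, had 2164, 2393, 1742, 1990 and 2345 in the I172G libraries, against 607, 635, 465, 868 and 728 in the controls and separated the groups (log2 fold change of 1.71, SE 0.15, adjusted p = 3.84e-05).

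General neuronal markers were mostly not called. Of 18 synaptic and pan-neuronal genes para was higher and Rim, a protein of the synaptic active zone, lower, with 6 lower without control replicate 4 and 0 lower without I172G replicate 4 or control replicate 1, 3 or 5. para encodes the voltage-gated sodium channel and had 862, 1450, 1386, 1294 and 919 in the I172G libraries, against 475, 593, 665, 454 and 619 in the controls. No I172G library reached down to the controls (log2 fold change of 1.06, SE 0.17, adjusted p = 0.0013). Of 31 neuropeptide genes 8 were lower and 1 higher, with 5 lower without control replicate 1 and 0 higher without I172G replicate 2, 3 or 4 or control replicate 1, 2 or 3. The lower ones include Mip at -0.76 ± 0.16, Dh44, a diuretic hormone, at -0.66 ± 0.13, and Nplp4 at -0.49 ± 0.09 (SE). Gr21a, part of the larval carbon dioxide receptor, had 34.9, 23.9, 22.8, 31.6 and 56.1 in the I172G libraries, against 134, 167, 76.1, 172.3 and 100.2 in the controls, without overlap (log2 fold change of -1.92, SE 0.29, adjusted p = 0.00102). Of 23 sarcomere genes 1 was higher and 3 lower, with 1 lower without control replicate 2 and 2 higher without control replicate 1. Mhc, the myosin heavy chain of muscle, was at -0.20 and not called (adjusted p = 0.183).

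Some changes clustered along the chromosomes. The share of genes called with a 2-fold or larger change was 20.4% of 137 genes whose start lay within 0.5 Mb of that of CG4743, 9.35% of 107 genes at 0.5 to 1 Mb, 12.3% at 1 to 2 Mb and 6.51% beyond 10 Mb on the same arm, with 7.45% over all genes. Of the 28 such genes within 500 kb, 8 were higher and 20 lower, and 13 lay in 1 cluster of genes related to ecdysteroid kinases, at 348.0 to 411.2 kb from CG4743 (3R, bases 25268009 to 25331203, BDGP6.54). Enzymes of this kind are known to add phosphate to ecdysteroids in other insects. In that stretch 28 genes were tested, of which 8 were higher and 13 lower. Near-identical copies may share reads, so the split among neighbours is uncertain.

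The cluster changed in blocks. The 6 neighbours CG11889, CG11891, CG11878, CG10513, CG10514 and CG11892 were all higher, and the 8 neighbours from CG13659 to CG10553 were all lower. Some of these calls were marginal. CG11878 was not called without I172G replicate 3, 4 or 5 or control replicate 1, 3, 4 or 5. Among the 8, CG13659 was not called without I172G replicate 3 or control replicate 3 or 5, and CG31099 was not called when any 1 library other than I172G replicate 1 or control replicate 4 was left out. CG11889 had 1340, 1568, 1568, 1529 and 1319 in the I172G libraries, against 275, 312, 389, 252 and 249 in the controls, a wide gap with little spread (log2 fold change of 2.32, SE 0.12, adjusted p = 8.55e-07). CG11893, between the blocks, had 27.4, 49.2, 27.2, 30.04 and 27.3 in the I172G libraries, against 713, 453, 809, 846 and 531 in the controls, which set all I172G libraries far below the controls (log2 fold change of -4.34, SE 0.21, adjusted p = 8.26e-07). CG10559 had 73.7, 77.5, 54.3, 87.1 and 84.9 in the I172G libraries, against 629.6, 385, 507, 578 and 496 in the controls, again with no overlap (log2 fold change of -2.76, SE 0.16, adjusted p = 1.78e-06). The non-coding gene CR43310 at the edge of the cluster had 3.07, 12.9, 5.4, 4.46 and 1.12 in the I172G libraries, against 191, 235, 272, 224 and 205 in the controls. Its I172G libraries were close to 0, and only 1 of them reached the filter of 10, so its test is given no weight. In the severe lines, whose alleles lie in the same gene, CR43310 averaged 4.75 ± 2.16 in P223L and 3.02 ± 1.73 in SAMC-null larvae, CG11893 66.5 ± 15.2 in P223L and 74 ± 13.7 in SAMC-null larvae and CG11889 462 ± 71 in P223L and 521 ± 65.8 in SAMC-null larvae (SD, n = 5 each). Sequence differences between the stocks around CG4743 were not analysed here, and their part in these values was not tested.

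**Figure D5:**
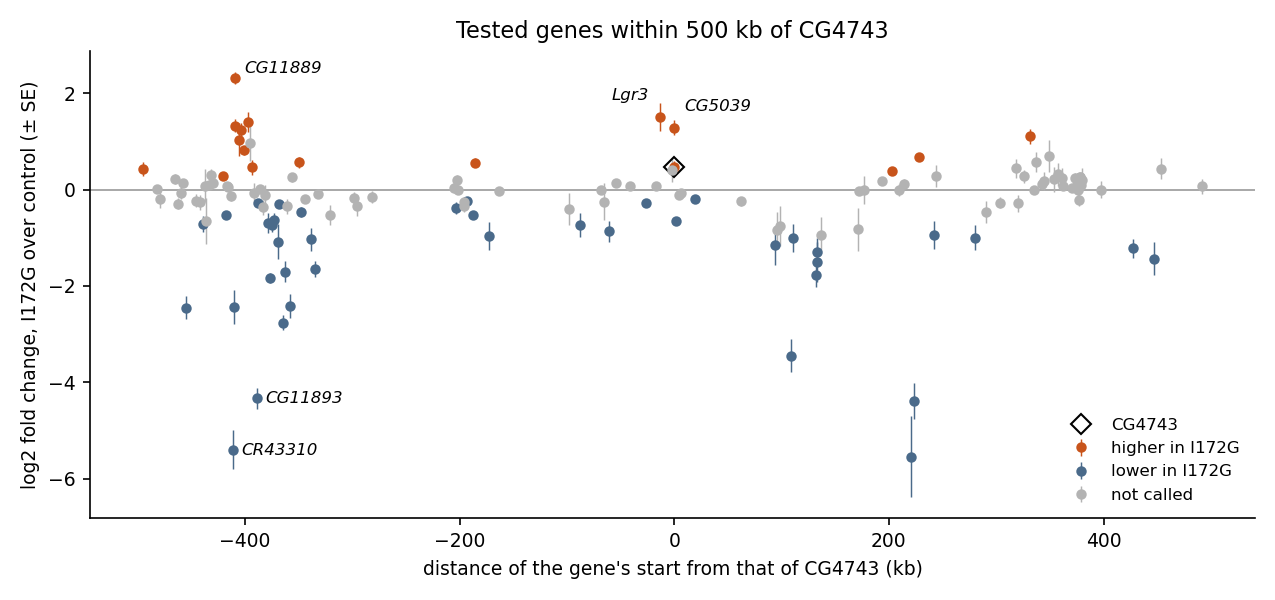
Log2 fold change of I172G over control, with SE bars, of tested genes on 3R by the distance of their start from that of CG4743 in kb. The cluster at 348.0 to 411.2 kb on the left holds genes called in both directions, from -5.40 for CR43310 to 2.32 for CG11889.

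On the other side of CG4743 lie 2 of the lipases that fell most, CG31091 at 220.7 kb and CG31089 at 223.4 kb. CG31091 had 10.6, 6.09, 2.25, 12.4 and 33.9 in the I172G libraries, against 1214, 459, 1773, 70.1 and 387 in the controls, with control replicate 4 lowest of the controls and above every I172G library (log2 fold change of -5.54, SE 0.83, adjusted p = 0.00102). CG31089 had 118, 66.9, 161, 182 and 232 in the I172G libraries, against 5701, 2448, 3883, 1532 and 2637 in the controls and likewise did not overlap (log2 fold change of -4.38, SE 0.37, adjusted p = 3.34e-05). A separate lipase cluster farther along the arm (bases 27003236 to 27026109) held CG6296 and CG6271, and 5 of its 7 tested genes were lower. On 2L, CG31778 had 1199, 987, 1136, 951 and 1586 in the I172G libraries, against 564, 337, 278, 679 and 431 in the controls and the groups did not overlap (log2 fold change of 1.40, SE 0.23, adjusted p = 0.00163).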

How the data were processed

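Libraries from total RNA of whole larvae, after removal of ribosomal RNA, were read as pairs of 75 bases, per the labels' protocols. The submitters' processing notes name Salmon 0.11.3, DESeq2 1.26.0 and the build BDGP6, without settings. The signal values used are normalised read counts per gene that the authors deposited, 1 column per library, scaled over all 20 libraries. The control values in the 3 deposited tables differ by rounding only. The same tables hold, per the file headers, log2 fold changes with standard errors, a test score with a weight, and p-values, which the authors computed and deposited. Low values were not whole multiples of a step, so no count test was run. Library sums are far above the read number stated in the labels, and the cause was not tested.

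Values were taken as log2(value + 1), and 12253 genes with 10 or more in 5 or more libraries were fitted with limma 3.58.1 (trend, 2 groups, no covariate; R 4.3.3), two-sided, with Benjamini-Hochberg adjustment over these genes and a threshold of 0.05. A fold change on this scale understates the change of low genes. Adjusted p-values are from limma on these libraries unless the authors' deposited table or an alternative is named. In simulated data on the same 12253 genes the fit recovered 50% of genes changed 1.5-fold, 82% at 2-fold, 96% at 4-fold and 100% at 8-fold, with 5.2% false among the calls. The simulation changed far fewer genes than were called in the real data. Its noise was independent between genes, with no library apart. These shares therefore do not carry over to the real calls. The median SE was 0.117. Gene positions are from Ensembl release 115 (BDGP6.54), matched by identifier for 13854 of 14081 genes.

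The comparison and the 66 gene lists were chosen with earlier results of these data known. Named genes are CG4743 and w, the largest and most certain changes, genes at 0 in all libraries of a group, genes changed 2-fold within 100 kb of CG4743, the members of the 3 longest runs, and up to 4 members of each list by adjusted p. A further 28 genes with values in the text, among them Ahcy, ple, whd and kl-5, were chosen after their values were seen. Alternatives were a pseudocount of 0.5 or 4, a filter of 50 or none, a median-ratio rescaling, a fit of all 4 groups, a replicate block, the authors' p-values, and leaving out each library. Normalised counts give no counting interval.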

Additional observations from a re-analysis of the deposited data

Results flagged for a closer look

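Among 282 groups of 5 values (the genes with printed values, 8 gene lists and 4 library measures), 25 held a library far from the other 4 by Dixon's ratio, with 0.71 as the critical value. Chance alone gives about 1 in 20 groups. I172G replicate 1 was that library in 9 groups, I172G replicate 5 in 6 and control replicate 4 in 2.

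I172G replicate 1 stood high for ple at 16544, ImpE2 at 1645, ImpE1 at 831, Drsl2 at 684, CG11899 at 715 and MtnB at 1004, and low for crc at 20901. It also stood high in the mean log2 level of the ecdysone response genes at 10.14 and of the tanning genes at 9.42. I172G replicate 5 stood high for Fbp1 at 393563, Sgs3 at 11750, w at 599, Amy-p at 12422 and CG6271 at 1944, and low for ND-B12 at 1786. Other I172G libraries stood apart for Yp3 (replicate 2, 8930), CG11893 (replicate 2, 49.2), Cht10 (replicate 3, 7804) and v (replicate 3, 757).

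Among controls, replicate 4 stood apart for CG6287, high at 1177, and for mag, low at 101559. Control replicate 3 stood high for Lgr3 at 39.9, Hex-C at 535 and Jon66Cii at 21528. Control replicate 2 stood high for CG43117 at 201.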

How the results depend on the processing

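No result changed sign with a call under the alternatives that were run. The higher count of 1789 was 41 by the authors' deposited adjusted p and ranged from 1393 to 2124 when 1 library was left out. The lower count of 2151 was 98 by the authors' deposited adjusted p and ranged from 1358 to 2938 when 1 library was left out. Both deposited counts rest on p-values that behave like those of a test against a 2-fold change, an unlike threshold. The labels do not say that replicate numbers pair the samples. Same-numbered I172G and control libraries had correlations of their deviations of -0.245 to 0.025. These values over all genes cannot decide whether same-numbered libraries shared a batch. With a replicate block the counts were 1310 higher and 1377 lower. The other pseudocounts, filters, the median-ratio rescaling (1978 and 1978) and the fit of all 4 groups (2319 and 2731) kept both counts within 1.5 times. The change of CG4743 of 0.46 ranged from 0.36 to 0.53 when 1 library was left out. Its authors' value was 0.46, less than a 2-fold change, with a deposited adjusted p of 1. Of the 310 named genes called, 272 kept the call with the block, 295 in the fit of all 4 groups, 306 after the rescaling and 275 to 307 when 1 library was left out. By the authors' adjusted p, at its unlike threshold, 45 of 308 did. The settings of the deposited test are not given. The cause of the differences under the other alternatives was not tested. The read depth is not known from these normalised counts, so no limit from depth is given.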
